A study of Mus musculus and Homo sapiens with 107 samples.

Results

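The 10 genes described here encode S100 proteins and were followed in 2 human lung cancer cell lines given an inhibitor of the SWI/SNF chromatin remodelling enzymes. They were chosen by identifier: S100A2 (ENSG00000196754), S100A3 (ENSG00000188015), S100A4 (ENSG00000196154), S100A6 (ENSG00000197956), S100A10 (ENSG00000197747), S100A11 (ENSG00000163191), S100A13 (ENSG00000189171), S100A14 (ENSG00000189334), S100A16 (ENSG00000188643) and S100P (ENSG00000163993). The first 9 lie on chromosome 1, in or by the S100 cluster of its long arm, and S100P lies on chromosome 4. The choice was made with earlier results of these data known. Counts and medians of the members set beside those of all genes are therefore description only. All 10 were among the 22842 identifiers present in both count tables, of 24353 rows for A549 and 24019 for H1299.

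The RNA-seq libraries fell into 4 groups of 3: A549 given BRM014 at 5 µM, A549 given DMSO, H1299 given BRM014 at 5 µM and H1299 given DMSO, each for 12 h. A549 and H1299 are established non-small-cell lung cancer lines, given as wild type in the labels, and both are known to lack functional SMARCA4, an ATPase of SWI/SNF. BRM014 is an inhibitor of the ATPase activity of SMARCA2 and SMARCA4, and DMSO is its solvent, given at 0.05% in the titles and 0.5% in the treatment field. A549 cells grew in F12-K medium and their libraries had 9 cycles of PCR, while H1299 libraries had 8 and the cells another medium, so a difference between the lines cannot be told apart from one of medium or of PCR cycles. The other 95 of the 107 samples were not analysed here.

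S100 proteins are small calcium-binding proteins of the EF-hand type that mostly act as dimers, changing shape when calcium binds and then gripping a partner protein. Among the partners are annexins at the membrane, non-muscle myosin and the ezrin family at the cell cortex, and some members also leave the cell and signal through surface receptors. Their genes sit close together on chromosome 1 and are switched on in different epithelia and tumours, and several serve as markers of lung adenocarcinoma or of invasive cells. S100A10 is unusual in that it no longer binds calcium and holds annexin A2 in a permanent complex.

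Total counts per library were 42417643 to 44910378 with BRM014 and 40684360 to 50177678 with DMSO in A549, and 30602193 to 41780029 with BRM014 and 28412113 to 40072734 with DMSO in H1299. The 10 genes together took 0.212% ± 0.00447 of the counts in BRM014-treated A549 libraries and 0.246% ± 0.00408 in DMSO (SD, n = 3 each). In H1299 they took 0.0175% ± 0.000489 with BRM014 and 0.0203% ± 0.00108 with DMSO (SD, n = 3 each). Levels below are CPM, counts divided by library size after TMM scaling, computed within a line unless said otherwise, and each is relative to the other genes of its library. The BRM014 columns of A549 include 2 with the same header, called libraries a and b here, beside library 3.

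In A549, most of the S100 genes were lower with BRM014. Of the 10 genes, 8 fell, S100A11 rose and S100A10 was not called (edgeR quasi-likelihood test, adjusted p under 0.05). Among all 15188 genes tested in A549, 37% were called, with 19.4% lower and 17.7% higher. The median log2 fold change, BRM014 over DMSO, was -0.50 over the 10 members and 0.02 over all genes tested. S100A14 passed the filter on low counts through its DMSO libraries alone; over the other 9 genes, 7 fell and the median was -0.48. In bulk libraries, fewer cells expressing a gene and less of its RNA per cell cannot be told apart.

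**Figure D1:**
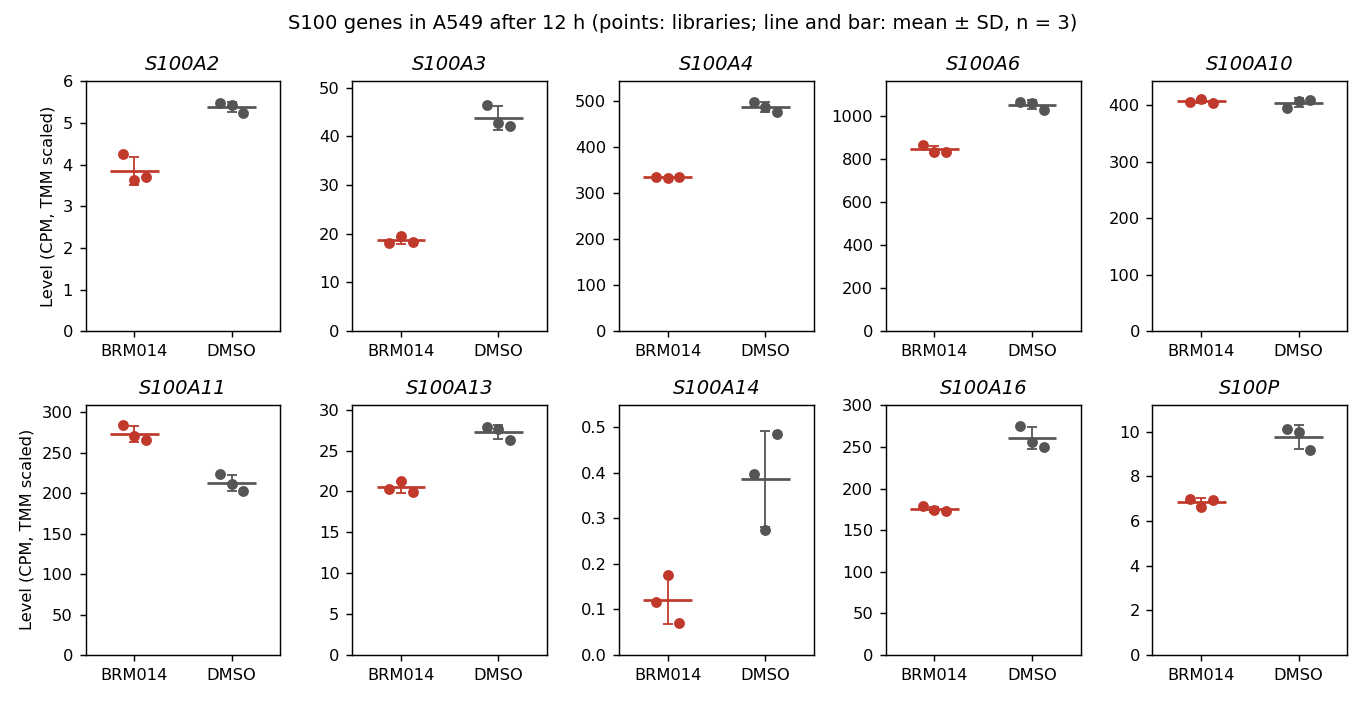
Levels of the 10 genes in A549 (CPM after TMM scaling; each panel has its own axis from 0). Points are libraries, horizontal lines and bars are the mean ± SD of 3. BRM014 lies below DMSO without overlap for 8 genes, above it for S100A11, and overlaps it for S100A10. The share of all tested genes whose groups do not overlap was not counted.

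S100A10 and S100A11 were the 2 genes that did not fall in A549. S100A11, a partner of annexin A1 that takes part in membrane repair, had 285, 271 and 266 CPM in libraries a, b and 3 of BRM014, against 224, 212 and 203 CPM in DMSO. The lowest treated library was above the highest DMSO library. The log2 fold change was 0.36 (SE 0.04, adjusted p = 3.88e-05), which is 1.29 times the DMSO level. S100A10, the partner of annexin A2, had 407, 411 and 404 CPM with BRM014, against 395, 408 and 410 CPM with DMSO. These groups overlapped, and the log2 fold change was 0.01 with a 95% interval of -0.06 to 0.08 (adjusted p = 0.826).

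S100A4, S100A6 and S100P fell in A549. S100A4, which binds non-muscle myosin and is known as a metastasis-associated protein, had 335, 333 and 335 CPM with BRM014, against 498, 486 and 475 CPM with DMSO. The 3 treated libraries lay within 2 CPM of each other, and the log2 fold change was -0.54 (SE 0.03, adjusted p = 8.5e-08). S100A6, also named calcyclin, had 867, 835 and 836 CPM with BRM014, against 1069, 1064 and 1031 CPM with DMSO. Its groups did not overlap either, but its fall was smaller, at a log2 fold change of -0.32 (SE 0.03, adjusted p = 4.14e-06). S100P, a partner of ezrin from another chromosome, had 6.96, 6.62 and 6.94 CPM with BRM014, against 10.1, 10.0 and 9.16 CPM with DMSO. Its log2 fold change of -0.51 (SE 0.08, adjusted p = 0.000226) stood close to that of S100A4.

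S100A3 had the largest fall among the S100 genes that were well counted in A549. This zinc- and calcium-binding protein is best known from the cuticle of hair. It had 18.2, 19.5 and 18.3 CPM with BRM014, against 46.5, 42.6 and 42.1 CPM with DMSO. Treated libraries held 42.7% of the DMSO level, a log2 fold change of -1.23 (SE 0.06, adjusted p = 2.24e-08). S100A2, an epithelial protein that binds p53, had 4.24, 3.63 and 3.69 CPM with BRM014, against 5.47, 5.42 and 5.24 CPM with DMSO. Library a was the highest of the treated libraries, and the log2 fold change was -0.48 (SE 0.09, adjusted p = 0.00182).

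The last 3 genes, S100A13, S100A14 and S100A16, are known neighbours in the cluster, and each fell in A549. S100A16 had 179, 174 and 173 CPM with BRM014, against 275, 255 and 250.3 CPM with DMSO, a log2 fold change of -0.57 (SE 0.04, adjusted p = 6.41e-07). S100A13, which helps FGF1 and interleukin-1 alpha leave the cell without a signal peptide, had 20.4, 21.3 and 19.9 CPM with BRM014, against 27.9, 27.6 and 26.2 CPM with DMSO. Its log2 fold change was -0.41 (SE 0.06, adjusted p = 0.000134). S100A14, an epithelial protein of the cell border, was scarce, with 5, 8 and 3 counts in the treated libraries, against 18, 11 and 24 counts in DMSO. The log2 fold change of S100A14 was -1.67 with a 95% interval of -2.56 to -0.78 (adjusted p = 0.00681), and its adjusted p was 0.00244 to 0.0341 over the alternatives. Without libraries a and b it was -2.47, a value that rests on the 3 counts of library 3 and takes its spread from the DMSO libraries alone.

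Fewer of the S100 genes were measurable in H1299, and those that changed all fell. Of the 10 genes, 7 passed the filter on low counts, and 5 of these fell, 0 rose and 2 were not called; S100A6, S100A14 and S100P were not tested. Over the 14986 genes tested in H1299, 22% were called, with 12.7% lower and 9.29% higher. At an unadjusted p under 0.05 in edgeR, 0 members rose, and DESeq2 and limma-voom also called 0 higher. The median log2 fold change over the 7 tested members was -0.33, against 0.00 over all genes tested. S100A3 passed the filter through DMSO alone; over the other 6 tested genes, 4 fell and the median was -0.23.

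**Figure D2:**
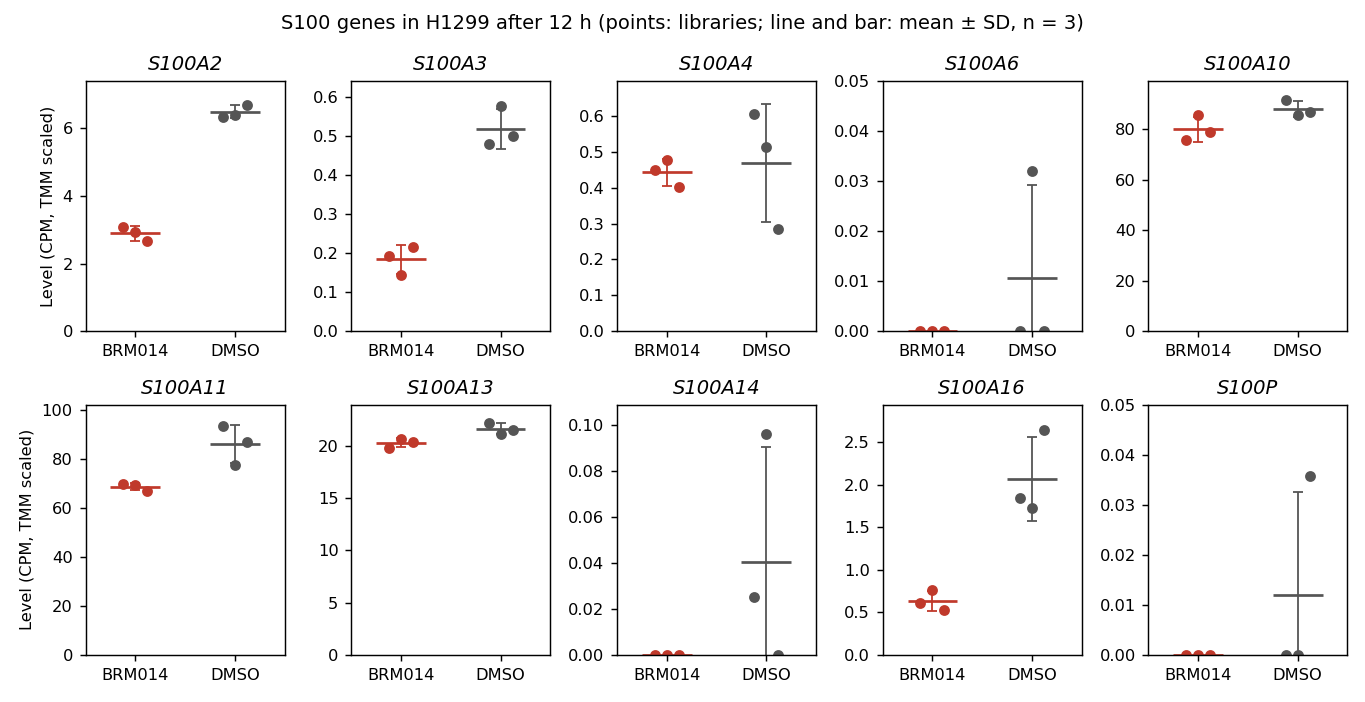
Levels of the 10 genes in H1299 (CPM after TMM scaling; each panel has its own axis from 0). Points are libraries, horizontal lines and bars are the mean ± SD of 3. S100A2, S100A3, S100A11, S100A13 and S100A16 are lower with BRM014 without overlap, though S100A13 was not called. The share of all tested genes whose groups do not overlap was not counted in H1299 either. The points of S100A6, S100A14 and S100P stand for 0 to 3 counts.

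S100A2 was the most clearly reduced S100 gene of H1299. It had 3.08, 2.93 and 2.66 CPM with BRM014, against 6.35, 6.41 and 6.71 CPM with DMSO. The highest treated library was less than the lowest DMSO library, and treated cells held 44.7% of the DMSO level (log2 fold change -1.16, SE 0.12, adjusted p = 1.85e-09). S100A16 had 19, 32 and 17 counts with BRM014, against 73, 54 and 74 counts with DMSO. In CPM these were 0.610, 0.763 and 0.526 with BRM014, against 1.85, 1.73 and 2.64 with DMSO. Its log2 fold change was -1.67 (SE 0.25, adjusted p = 2.69e-06), or 31.4% of the DMSO level.

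S100A11, the gene that rose in A549, fell in H1299. It had 69.8, 69.5 and 67.0 CPM with BRM014, against 93.5, 77.8 and 87.1 CPM with DMSO. The DMSO libraries spread more widely than the treated ones but did not overlap them, and the log2 fold change was -0.33 (SE 0.05, adjusted p = 7.81e-07). S100A10 had 75.6, 85.4 and 78.8 CPM with BRM014, against 91.5, 85.3 and 86.6 CPM with DMSO. Replicate 2 of BRM014 reached the lowest DMSO library, and the log2 fold change was -0.13 (SE 0.04, adjusted p = 0.0158). That call was lost without DMSO replicate 1 (adjusted p = 0.170), BRM014 replicate 1 (0.107) or BRM014 replicate 3 (0.0733), and with library totals in place of TMM (0.0633); over all alternatives the adjusted p was 0.000217 to 0.170.

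S100A3 had 6, 6 and 7 counts in H1299 with BRM014, against 19, 18 and 14 counts with DMSO. The log2 fold change of -1.50 (95% interval -2.38 to -0.61, adjusted p = 0.0102) was not called without BRM014 replicate 2 (-1.32, adjusted p = 0.0582), the highest of the alternatives, whose lowest was 0.00126. S100A4 had 14, 20 and 13 counts with BRM014, against 24, 16 and 8 counts with DMSO. The groups overlapped, and the interval of the log2 fold change was too wide to exclude the fall seen in A549, at -0.87 to 0.64 (value -0.11, adjusted p = 0.880). S100A13 had 19.8, 20.7 and 20.3 CPM with BRM014, against 22.2, 21.2 and 21.5 CPM with DMSO. Its libraries did not overlap, but the log2 fold change of -0.09 was not called (95% interval -0.21 to 0.03, adjusted p = 0.302).

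S100A6, S100A14 and S100P were at or close to a count of 0 in H1299. S100A6 had 0, 0 and 0 counts with BRM014, against 0, 1 and 0 counts with DMSO. S100P had 0 counts in every BRM014 library, against 0, 0 and 1 counts in DMSO, and S100A14 had 0 in every BRM014 library, against 1, 3 and 0 counts in DMSO. A count of 0 allows up to 3 counts, which is 0.0715 to 0.0964 CPM in the BRM014 libraries and 0.0759 to 0.107 CPM in the DMSO libraries. These floors, and the intervals of count ratios given further on, cover counting error only. A response of these genes in H1299 was not detectable at this depth.

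Whether an S100 gene responded differently in the lines was tested as the response in H1299 minus the response in A549, in a joined fit of all 12 libraries. The responses of 4 of the 10 genes differed: those of S100A2, S100A11 and S100A16 were more negative in H1299, and that of S100A13 was less negative there. Among the 16466 genes tested, 19.5% differed, 9.25% being more negative in H1299. For S100A6, S100A14 and S100P the joined fit rests on at most 4 counts in all H1299 libraries, and no difference is read from it.

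**Figure D3:**
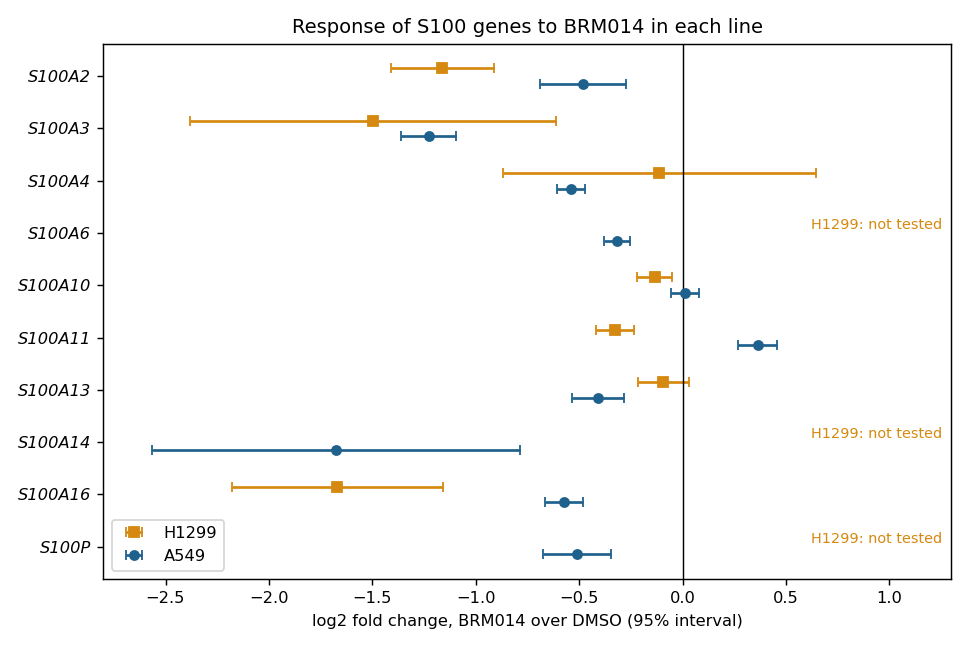
Log2 fold change of each S100 gene, BRM014 over DMSO, with its 95% interval, H1299 above A549, each line fitted alone. S100A11 lies below 0 in H1299 and above 0 in A549, S100A2 and S100A16 are further below 0 in H1299, and 3 genes were not tested in H1299.

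S100A11 showed the contrast with opposite signs in the lines. Its log2 fold change was -0.33 in H1299 and 0.36 in A549, and the difference from the joined fit was -0.67 (SE 0.07, adjusted p = 2.45e-07). S100A16 fell in both, by 1.67 in H1299 and by 0.57 in A549 on the log2 scale, and the difference was -1.06 (SE 0.20, adjusted p = 0.000339). S100A2 likewise fell in both, with a difference of -0.66 (SE 0.15, adjusted p = 0.00191).

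S100A13 had a log2 fold change of -0.09 in H1299 and -0.41 in A549, with a difference of 0.34 (SE 0.08, adjusted p = 0.00378). For S100A3 and S100A4 the difference was not called by edgeR in the joined fit, at -0.25 (adjusted p = 0.684) and 0.44 (adjusted p = 0.322). Both were scarce in H1299, and their fitted intervals were narrower than counting error allows, so these are not given. For S100A10 it was not called either, at -0.12 (95% interval -0.25 to 0.01, adjusted p = 0.185). The difference of S100A10 was called with library totals in place of TMM (-0.16, adjusted p = 0.0424) and without BRM014 replicate 2 of H1299 (-0.18, adjusted p = 0.0317), with adjusted p up to 0.440 under the others.

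Without the inhibitor, the lines differed widely in these genes. In the joined fit, 9 of the 10 genes were lower in H1299 DMSO than in A549 DMSO and S100A2 was not called. S100A6, S100A14 and S100P passed the filter through A549 alone; over the other 7 genes, 6 were lower. The background was high as well: 85.7% of the 16466 genes differed, 42.8% being lower in H1299. Levels here are CPM scaled over all 12 libraries, and with library totals in place of TMM the median difference of all genes moved by 0.23 on the log2 scale.

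**Figure D4:**
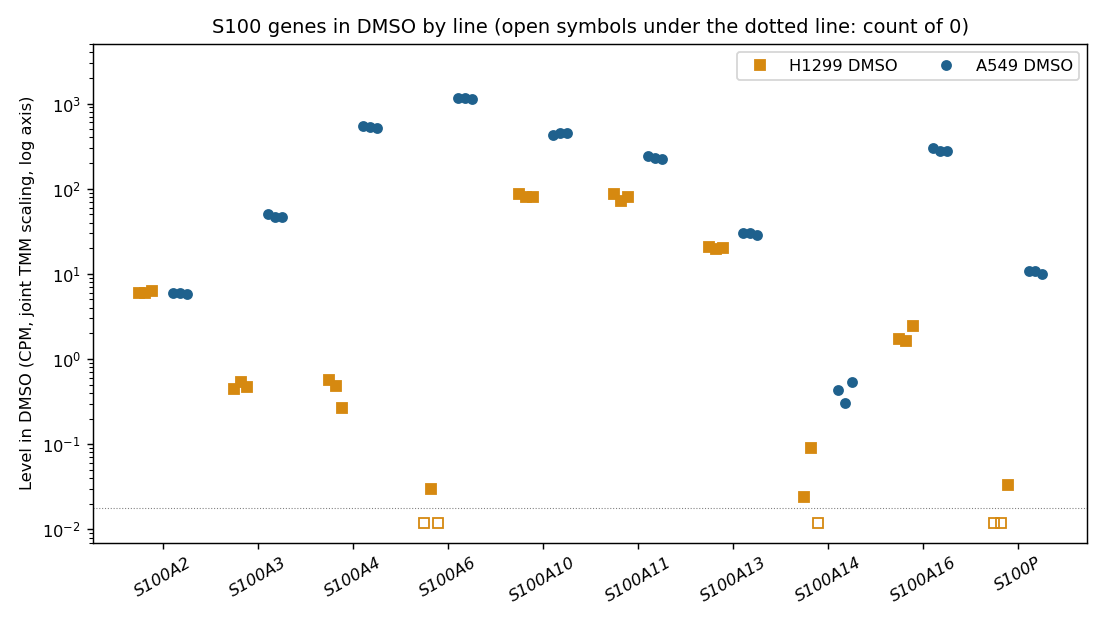
Level of each S100 gene in the DMSO libraries, H1299 left of A549 (CPM scaled over all libraries, log axis; open symbols under the dotted line are counts of 0). S100A2 was not called (it was called higher in H1299 with library totals in place of TMM), and each other gene lies lower in H1299 in all 3 libraries.

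S100A2 averaged 6.04 ± 0.16 CPM in H1299 DMSO and 5.86 ± 0.113 CPM in A549 DMSO (SD, n = 3 each). The log2 difference was 0.04, with a 95% interval of -0.15 to 0.24 (adjusted p = 0.672). It was 0.27 and called with library totals (adjusted p = 0.0122), a move close to that of the median gene; over all alternatives its adjusted p was 0.0122 to 0.986. S100A16 averaged 1.93 ± 0.456 CPM in H1299 DMSO and 284 ± 12.7 CPM in A549 DMSO (SD, n = 3 each). The log2 difference of S100A16 was -7.22 (adjusted p = 4.93e-29). Its count ratio of H1299 to A549, scaled for library size, was 0.00669 (exact 95% interval 0.00579 to 0.00768).

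S100A3, the neighbour of S100A2, averaged 0.483 ± 0.0462 CPM in H1299 DMSO and 47.6 ± 2.31 CPM in A549 DMSO. The log2 difference of S100A3 was -6.62 (adjusted p = 1.1e-25). It rests on 51 counts in H1299 DMSO. The count ratio of H1299 to A549, scaled for library size, was 0.0101 (exact 95% interval 0.00751 to 0.0133). S100A4, next along the chromosome, averaged 0.436 ± 0.156 CPM in H1299 DMSO and 530 ± 9.73 CPM in A549 DMSO (SD, n = 3 each). The log2 difference of S100A4 was -10.18 (adjusted p = 7.1e-32), and -10.45 to -9.96 without each library in turn. It rests on 48 counts in H1299 DMSO, with a count ratio of 0.000855 (exact 95% interval 0.00063 to 0.00113). Within this short stretch of the cluster, S100A2 was not called between the lines while S100A3 and S100A4 were.

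For the genes at the floor in H1299, counts summed over the 3 libraries show the contrast. S100A6 had 1 count in H1299 DMSO and 141949 counts in A549 DMSO, and the ratio of H1299 to A549, scaled for library size, was 8.22e-06 (exact 95% interval 2.08e-07 to 4.58e-05). S100P had 1 count in H1299 DMSO and 1311 counts in A549 DMSO, a ratio of 0.00089 (2.25e-05 to 0.00497). S100A14 was scarce in both, with 4 counts in H1299 DMSO and 53 counts in A549 DMSO, a ratio of 0.088 (0.0231 to 0.239).

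Among the genes that were lower in H1299 DMSO, S100A13, S100A11 and S100A10 had the smallest differences. S100A10 averaged 81.8 ± 3.44 CPM in H1299 DMSO and 441 ± 11.6 CPM in A549 DMSO, a log2 difference of -2.43 (SE 0.05, adjusted p = 1.97e-24). S100A11 averaged 80.2 ± 7.69 CPM in H1299 DMSO and 232 ± 9.81 CPM in A549 DMSO, a log2 difference of -1.53 (SE 0.05, adjusted p = 5.83e-19). S100A13 averaged 20.1 ± 0.594 CPM in H1299 DMSO and 29.7 ± 0.862 CPM in A549 DMSO, a log2 difference of -0.56 (SE 0.06, adjusted p = 1.95e-09; SD, n = 3 each throughout).

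On the same scale, the 4 groups stood in the same order for 8 of the 10 genes. For S100A3, S100A4, S100A6, S100A10, S100A13, S100A14, S100A16 and S100P it ran, from high to low, A549 DMSO, A549 BRM014, H1299 DMSO and H1299 BRM014. S100A11 had A549 BRM014 at 294 ± 10.3 CPM above A549 DMSO at 232 ± 9.81 CPM, and H1299 BRM014 at 64.1 ± 1.46 CPM below H1299 DMSO at 80.2 ± 7.69 CPM (SD, n = 3 each). S100A2 had H1299 at both ends: H1299 BRM014 was lowest at 2.696 ± 0.194 CPM and A549 BRM014 next at 4.13 ± 0.347 CPM, with the DMSO groups close together above them. Neighbours in the order overlapped for S100A10 within each line, and in H1299 for S100A4, S100A6, S100A14 and S100P. They also overlapped for S100A14 between A549 BRM014 and H1299 DMSO. Within H1299 the order rests on at most 4 DMSO counts for each of S100A6, S100A14 and S100P. For S100A4 it rests there on 48 counts with DMSO against 47 with BRM014. The order of S100A10 in A549 depends on the scaling. Scaled within A549, its mean was 407 ± 3.23 CPM with BRM014, above 404 ± 8.07 CPM with DMSO (SD, n = 3 each). The order is that of group means, and the share of all genes with it was not counted.

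Ratios between members within a library do not depend on how libraries are scaled, and gene length cancels when a ratio is compared between treatments. Pairs known to lie near each other on chromosome 1 that had at least 10 counts in every library of a line were set side by side, which gave 9 comparisons, chosen after the data were seen. With 3 libraries against 3, the two-sided exact permutation test cannot go below p = 0.10, or 0.129 after adjustment over the 9, so no ratio could pass 0.05. In A549, S100A10 over S100A11 was 1.43 to 1.52 with BRM014, against 1.77 to 2.02 with DMSO, and the groups did not overlap. In H1299 the same ratio was 1.08 to 1.23 with BRM014, against 0.979 to 1.10 with DMSO, and the groups overlapped (exact permutation p = 0.20).

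**Figure D5:**
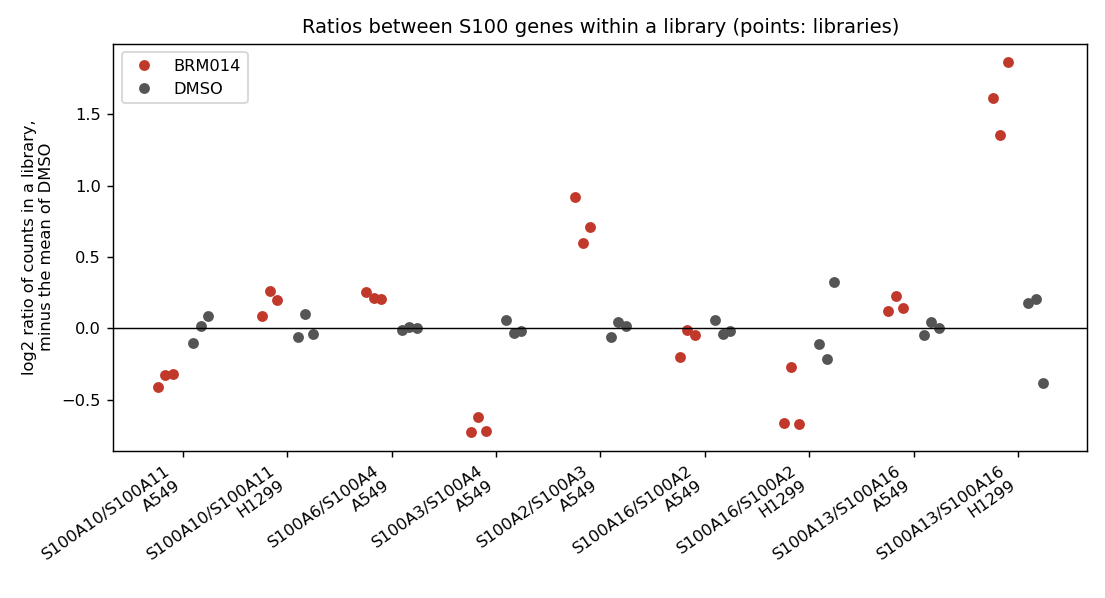
Log2 ratio of the counts of paired S100 genes in each library, minus the mean of the DMSO libraries of that line, BRM014 left of DMSO. S100A13 over S100A16 in H1299 and S100A2 over S100A3 in A549 lie furthest above DMSO, and S100A3 over S100A4 in A549 furthest below.

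Of the 9 comparisons, 7 reached the smallest possible exact permutation p. The ratios restate the responses of single genes given above, and no share over other gene pairs was counted. S100A3 over S100A4 was 0.0543 to 0.0585 with BRM014 in A549, against 0.0877 to 0.0934 with DMSO. S100A2 over S100A3 was 0.186 to 0.233 with BRM014 in A549, against 0.118 to 0.127 with DMSO, and S100A6 over S100A4 was 2.50 to 2.59 with BRM014, against 2.15 to 2.19 with DMSO. In H1299, S100A13 over S100A16 was 27.1 to 38.6 with BRM014 and 8.14 to 12.2 with DMSO, while in A549 it was 0.114 to 0.122 with BRM014 and 0.101 to 0.108 with DMSO. S100A16 over S100A2 was 0.198 to 0.260 with BRM014 in H1299, against 0.270 to 0.394 with DMSO. In A549 that ratio overlapped between treatments (42.2 to 47.9 with BRM014, 47.1 to 50.3 with DMSO, exact permutation p = 0.30).

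The genes most like a member were sought over 3 fitted log2 values: the response in A549, the response in H1299 and the H1299 minus A549 value in DMSO. Likeness was the Euclidean distance to each of 13674 other genes. S100A3 and S100A16 were the members with the largest called responses in A549 and H1299 among those with all 3 values. The gene nearest to S100A3 was ENSG00000205336, at a distance of 0.219, and S100A16 ranked 6 at 0.905. The gene nearest to S100A16 was ENSG00000155465, at 0.844, and S100A3 ranked 2. The 3 values were not scaled, and the largest for S100A3 and S100A16 was the DMSO value (-6.62 and -7.22). Their responses in A549 were less alike, at -1.23 and -0.57, so a near rank does not mean a like response. The other S100 genes were further off, with S100A4 at rank 366 from S100A3 and rank 158 from S100A16. The H1299 responses of S100A3 (SE 0.43) and S100A16 (SE 0.25) carry errors of the order of the distances to the nearest genes, so the ranks among near genes describe these fitted values only.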

How the data were processed

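The authors deposited raw counts per gene in a table for each line, not normalized. Per the labels' protocols, ERCC spike-ins were added according to cell number, and stranded total RNA libraries were made from 500 ng of RNA after depletion of ribosomal RNA. The tools named, per the submitters' processing notes, are STAR 2.7.3a, Bowtie 1.2.2, cutadapt 1.14, DESeq2 and featureCounts, with build hg38. Their roles and the annotation are not given, and the strand setting is also not given in the sources used here, so counts of overlapping or antisense genes are uncertain. The labels do not tell whether replicates were separate cultures, and p-values then describe the spread between libraries, which may be technical. Within groups, counts differed beyond sampling noise (chi-square per degree of freedom 2.20 to 11.1), and each library counted as a replicate. The headers give 2 BRM014 libraries of A549 the same name, so they carry no number.

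The 10 members and the lists were chosen with earlier results of these data known. All members are named. Lists of genes by symbol, cell line markers, genome coordinates and sequences were not used here, because the tables pair no human identifiers with names; no row is named for a spike-in. Which members neighbour each other on chromosome 1 is background knowledge, not read from the data.

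Analysis used edgeR 4.0.16 in R 4.3.3. The filter on low counts was filterByExpr (a count of 10 in a median library, 15 in total) and scaling was by TMM. The quasi-likelihood test was two-sided, with Benjamini-Hochberg adjustment over all genes tested and a threshold of 0.05. In A549 the filter came to 0.228 CPM and in H1299 to 0.316 CPM. Each line was fitted alone; differences between lines came from a joined fit of 12 libraries. Standard errors are the log2 value over the square root of F. For differences between lines that rest on few counts they can fall below counting error. Where they clearly did, exact count ratios or the adjusted p alone are given instead. Alternatives were DESeq2 1.42.0 and its size factors, limma-voom (limma 3.58.1), library totals, no filter, at least 5 CPM in 3 libraries, leaving out each library, a replicate block in H1299, the joined fit and, chosen after the data were seen, leaving out both unnumbered libraries and a block in A549.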

Additional observations from a re-analysis of the deposited data

Results flagged for a closer look

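The responses of 4 S100 genes to BRM014 differed between the lines by the test of the difference itself (response in H1299 minus response in A549, edgeR quasi-likelihood test in the joined fit, adjusted p under 0.05). On the log2 scale the difference was -0.66 for S100A2, -0.67 for S100A11, 0.34 for S100A13 and -1.06 for S100A16. S100A11 was lower with BRM014 than with DMSO in 3 of 3 H1299 libraries and higher in 3 of 3 A549 libraries. No part of the line, the medium or the PCR cycles in these differences was tested.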

How the results depend on the processing

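Of 520 values of single genes under alternative settings, 507 kept their direction and their side of the threshold, 5 were no longer called, 3 were newly called and 5 changed sign. Settings in which a gene was not tested, such as S100A14 in A549 with at least 5 CPM, are not among the 520. Of the 520, 133 belong to the DMSO comparison, and some of these leave out a BRM014 library. Such a library enters that comparison only through the filter, the scaling and the spread, so little could change. The changes of sign were in values that were not called. S100A10 in A549 (0.01) was -0.012 in the joined fit and -0.026 without both unnumbered libraries, and without each library in turn it was -0.0073 to 0.019. S100A4 in H1299 (-0.11) was -0.34 to 0.14 without each library in turn. With at least 5 CPM in 3 libraries, 4 members were tested in H1299 and 3 fell, against 5 as reported. The counts of members without each library were 9 changed and 8 lower in A549, 4 to 5 changed in H1299, 4 to 5 with different responses, and 9 that differed in DMSO. With a replicate block in H1299, 5 members fell. Same-numbered libraries did not deviate together there (correlations of -0.0857, -0.0255 and 0.0286). These correlations cannot tell whether same-numbered libraries were set up or handled together. In A549, where 2 libraries carry no number, a replicate block was fitted under both assignments of these to DMSO replicates 1 and 2, and 8 members fell and 1 rose under each. The deviations of libraries a, b and 3 correlated with those of DMSO 1, 2 and 3 at 0.693, 0.0732 and 0.483 under one assignment. Under the other, a with DMSO 2 gave -0.419 and b with DMSO 1 gave -0.201, so neither pairs all libraries closely. With a block of a with DMSO 1 and b with DMSO 2, 7912 of 15188 genes were called. The other block called 5519, against 5624 without a block. The main A549 test has no block and takes no account of structure shared by treated and DMSO libraries. Depth limits S100A3, S100A4, S100A6, S100A16 and S100P in H1299 and S100A14 in both lines, where a library held at most 74 counts.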
